A study of Bos taurus with 20 samples.

Results

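Whole bovine embryos that had never been cryopreserved were compared with trophectoderm (TE) taken from vitrified embryos, all recovered at day 14 of development. The comparison used 13 of the 20 samples of the study, chosen by their titles: 6 libraries of fresh whole embryos and 7 libraries of TE from vitrified embryos. The study asked how vitrification affects gene expression in elongating bovine embryos, which were flushed from the uterus as viable embryos and sequenced whole or as isolated TE. The remaining samples, 2 vitrified whole embryos and 5 fresh TE, entered only 1 alternative fit and served as reference values. The breed of the embryos and the vitrification protocol are not given in the labels. The labels also do not say whether a sample is 1 embryo or how samples of a group relate, so p-values measure only the spread between these samples, which may be technical. The 2 groups differ both in sample kind (whole embryo or TE) and in vitrification. Within this contrast the effects of sample kind and of vitrification cannot be told apart, and every difference below is one between fresh whole embryos and vitrified TE.

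At this stage the bovine blastocyst has left its zona pellucida and grows from a sphere to a filament within days. Most of its cells are TE, the outer epithelium that gives rise to the placenta and secretes interferon tau, the signal by which a ruminant embryo maintains the corpus luteum. The epiblast, a small disc of pluripotent cells marked by POU5F1, NANOG and SOX2, forms the body, and the hypoblast, marked by GATA4, GATA6, SOX17 and FOXA2, lines the TE from within and lays down basement membrane. Vitrification cools an embryo in concentrated cryoprotectant so fast that its water turns to glass without ice. In bulk samples, fewer cells of a type and less RNA per cell cannot be told apart.

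Levels are given in RPKM, the reads of a gene divided by its length in kilobases and by the size of the library in M reads (M is the metric prefix mega), after subtraction of the constant 0.01 that the deposited values carry. The kilobases are those of the whole gene span, introns included, so levels of different genes are not compared with each other. Libraries of fresh whole embryos held 6.09 to 14.5 M reads and those of vitrified TE 7.73 to 9.55 M. The listed genes took 59.5 ± 1.55% (SD, n = 6) and 58.7 ± 0.942% (SD, n = 7) of them. Mitochondrial messenger RNAs made up 4.23 ± 0.676% of listed reads in fresh whole embryos and 8.04 ± 1.44% in vitrified TE, with no overlap (exact two-sided permutation test over 1716 splits, p = 0.00058, adjusted over 5 library measures to 0.0015). The 10 most abundant genes took 9.88 ± 1.59% and 14.7 ± 1.65% (adjusted p = 0.0015). Cytosolic ribosomal protein genes took 11.99 ± 1.34% and 9.84 ± 1.202%, a difference with an adjusted p of 0.024 that rose to 0.051 without fresh whole embryo 4 or 5.

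The labels were checked against markers of the cell layers. Reads of POU5F1, NANOG and SOX2 summed to between 6.88 and 40.9 per M in the 6 fresh whole embryos and to between 1.67 and 6.95 in the 7 vitrified TE libraries. The ranges touch, with vitrified TE 5 above the lowest fresh whole embryo, so epiblast transcripts were low but not absent in vitrified TE. In the 5 fresh TE libraries the sum was 0 to 0.891. Hypoblast markers (GATA4, GATA6, SOX17 and FOXA2) went the other way, with 1.81 to 11.8 reads per M in fresh whole embryos and 12.3 to 25.2 in vitrified TE. Fresh TE held 0.299 to 1.02. The vitrified libraries labelled TE thus carried hypoblast transcripts above the level of fresh whole embryos and of fresh TE. These markers go against a label of TE alone, and vitrified TE is used below as the name that the labels give. Trophectoderm markers (KRT8, KRT18, GATA2, GATA3, TFAP2A, TFAP2C, ASCL2 and IFNT) summed to 6738 to 9427 reads per M in fresh whole embryos and 9722 to 14285 in vitrified TE. KRT8 and KRT18 held most of these reads in both groups, so the sum mainly follows the keratins. The markers were not uniform: IFNT was lower in vitrified TE, and KRT18 and TFAP2C did not pass the test given below. Of 4 defining markers of maternal endometrium only OXTR was in the table, at 0 to 0.493 reads per M. Defining markers of blood (HBA, ALAS2 and CSF1R) summed to 1.36 to 4.90 in both groups together. The defining markers of mesoderm were not analysed here. Among the reference libraries, the library labelled vitrified whole embryo 1 had 1.54 epiblast reads per M and no read of NANOG, while vitrified whole embryo 2 had 119. The first of these goes against its label, and their values are therefore given library by library.

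In limma's test of 9329 genes, 4618 differed at an adjusted p under 0.05 (49.5%). Of these, 2953 were higher in vitrified TE (31.7% of genes tested) and 1665 were higher in fresh whole embryos (17.8%). The counts and shares of every gene list below are to be read against these 31.7% and 17.8%. The groups did not overlap at all for 1536 genes higher in vitrified TE (16.5%) and 654 genes higher in fresh whole embryos (7.01%). The balance of the directions rests on the scaling: median-ratio scaling, which sets the typical gene to no change, gave 2363 and 2356 genes, and quantile normalization 2223 and 2435. The median log2 difference over all genes, vitrified TE minus fresh whole embryo, was 0.08 with the deposited scaling and -0.03 after quantile normalization. The plot of principal components shows the 2 groups as separate sets of libraries, with fresh TE far from both.

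**Figure D1:**
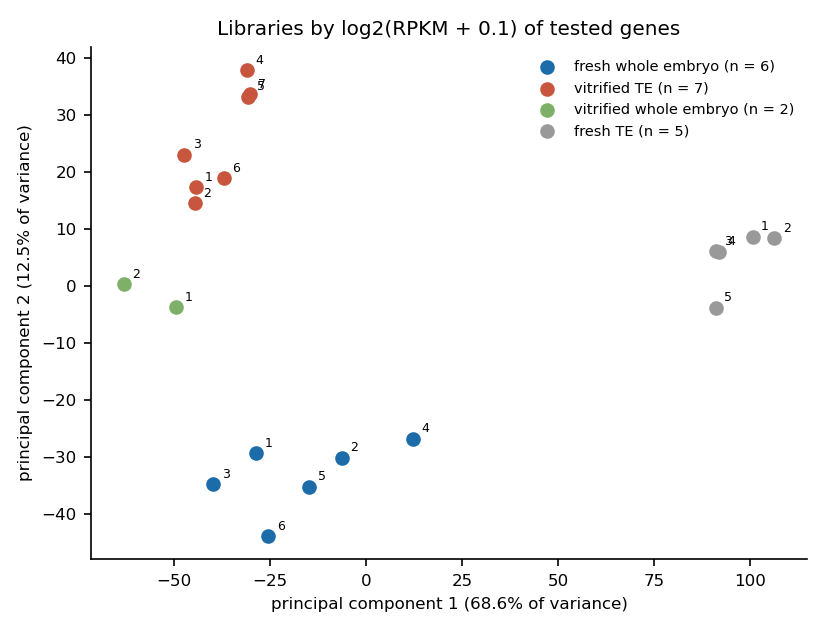
Principal components of log2(RPKM + 0.1) for the genes tested, with 1 point per library, numbered by replicate within its group; the axes give the 2 leading components with their share of the variance (68.6% and 12.5%). The first component sets the 5 fresh TE libraries apart, and the second orders fresh whole embryos, the 2 vitrified whole embryos and vitrified TE from bottom to top.

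NANOG, a factor that keeps epiblast cells pluripotent, was nearly missing from vitrified TE (chromosome 5, 101871073 to 101876226 in UMD3.1, plus strand). Its level was 0.381 to 2.53 RPKM (median 0.561) in fresh whole embryos and 0 to 0.174 RPKM (median 0) in vitrified TE. The groups did not overlap, and 4 of the 7 vitrified TE libraries had no read of it, a count that allows up to 3 reads each. Over the group, 300 reads stood against 12, and the mean was 25.4 times higher in fresh whole embryos (log2 difference 2.73 ± 0.37 SE, adjusted p = 4.1e-05). NANOG passed the filter on reads only through the fresh whole embryos, so its test is given as a description. POU5F1, which encodes OCT4 (chromosome 23, 27769893 to 27774392), ranged over 1.05 to 6.01 RPKM (median 1.7) in fresh whole embryos and 0.302 to 1.25 RPKM (median 0.856) in vitrified TE. These groups overlapped, and the log2 difference of 1.20 ± 0.36 (SE) had an adjusted p of 0.014, which became 0.10 when all 4 groups of the study shared 1 estimate of the spread. SOX2 had too few reads to be tested, with 0 to 0.588 RPKM (median 0.347) and 0 to 0.307 RPKM (median 0.0886). Fresh whole embryo 3 was the highest of its group in both NANOG and POU5F1.

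Of 25 epiblast and pluripotency genes in the table, 13 passed the filter on low values, of which 4 were higher in fresh whole embryos (30.8%, against 17.8% of all genes) and 3 in vitrified TE (23.1%, against 31.7%; median log2 difference -0.13, vitrified TE minus fresh whole embryo, against 0.08 over all genes). Beside NANOG and POU5F1, the genes higher in fresh whole embryos were SLC7A3 and PDPN. SLC7A3, a transporter of cationic amino acids, was at 0.108 to 0.993 RPKM (median 0.391) in fresh whole embryos and at 0 to 0.37 RPKM (median 0) in vitrified TE (log2 difference 1.98 ± 0.43 SE, adjusted p = 0.0015). Only vitrified TE 5 reached into the range of the embryos. SLC7A3 passed the filter on reads only through the fresh whole embryos, so its test is given as a description. PDPN, a mucin-like membrane glycoprotein, was 1.46 times higher in fresh whole embryos. The list was not uniform, since SALL4, a zinc-finger factor of stem cells, was 2.86 times higher in vitrified TE and the DNA methyltransferase DNMT3B 2.96 times, both without overlap of the groups. ESRRB was the third member of the list that was higher in vitrified TE, with a log2 difference of 0.39 (adjusted p = 0.0077).

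Metallothioneins, small proteins that bind zinc and copper, were lower in vitrified TE as well. Their 3 tested genes lie close together on chromosome 18. MT2A (24125366 to 24126333) was at 6.46 to 23.6 RPKM (median 11.8) in fresh whole embryos and 0.108 to 2.55 RPKM (median 0.341) in vitrified TE. MT1E (24112351 to 24118787) was at 0.747 to 2.63 RPKM (median 2.04) and 0.0195 to 0.394 RPKM (median 0.181), and MT1A (24106722 to 24108521) at 0.599 to 1.72 RPKM (median 1.002) and 0 to 0.131 RPKM (median 0). No library of one group reached the range of the other for any of the 3. The log2 difference was 4.55 ± 0.49 (SE) for MT2A (adjusted p = 8.2e-06) and 2.75 ± 0.33 (SE) for MT1E (adjusted p = 1.8e-05). MT1A had 117 reads over the fresh whole embryos and 2 over the vitrified TE libraries, all in vitrified TE 5 (adjusted p = 6.1e-07). MT2A had 38 reads over the vitrified TE libraries and MT1E 84. All 3 genes passed the filter on reads only through the fresh whole embryos, so their tests and lack of overlap are given as a description. The 3 genes are close in sequence, so reads may have been shared among them. In the list of oxidative stress genes and metallothioneins, 12 of 29 tested members were higher in fresh whole embryos (41.4%) and 4 in vitrified TE (13.8%), and the median log2 difference was -0.38. KEAP1, which holds the antioxidant factor NRF2 inactive, was among the 4, at 1.21 to 1.92 RPKM (median 1.53) in fresh whole embryos and 2.58 to 4.68 RPKM (median 3.23) in vitrified TE.

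NANOG, POU5F1, SLC7A3 and the metallothioneins had a common pattern in the reference libraries. Vitrified whole embryo 2 was above the mean of the fresh whole embryos in each of them, with 4.22 RPKM of NANOG, 20.6 of POU5F1, 0.859 of SLC7A3 and 40.6 of MT2A. Vitrified whole embryo 1 had 0 reads of NANOG, SLC7A3, MT2A and MT1A, and 0.316 RPKM of POU5F1. FABP7, a fatty acid binding protein, followed them, with 0.825 to 2.61 RPKM (median 1.21) in fresh whole embryos, 0.0276 to 0.444 RPKM (median 0.205) in vitrified TE, and 0.188 and 3.13 RPKM in vitrified whole embryos 1 and 2. In the group of vitrified TE, library 5 was the highest in NANOG, POU5F1, MT2A, MT1A and SLC7A3. MT1E was highest in library 2 (0.394 RPKM, against 0.329 in library 5). Among fresh whole embryos the genes did not share a highest library, which was 3 for NANOG and POU5F1 and 4 for MT2A and MT1E. NANOG and POU5F1 are themselves epiblast markers, and the other genes were set beside them because of the pattern in the reference libraries. The common pattern is therefore a description, and the part of epiblast cells in the differences was not tested.

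A second set of genes was high in fresh whole embryos and low in both vitrified whole embryos. CCL27, a chemokine that attracts lymphocytes to epithelia (chromosome 8, 77368244 to 77368955), had the largest log2 difference of all named genes. It was at 37.5 to 185 RPKM (median 156) in fresh whole embryos and 0.309 to 17.6 RPKM (median 3.77) in vitrified TE (log2 difference 4.69 ± 0.74 SE, adjusted p = 0.00014). The vitrified whole embryos stood at 1.83 and 3.76 RPKM, and fresh TE at 0.455 to 4.65 RPKM. PLAU, the urokinase that activates plasminogen (chromosome 28, 29964983 to 29971029), was at 47.1 to 100.005 RPKM (median 66.2) and 3.75 to 13.5 RPKM (median 5.01), 8.52 times higher in fresh whole embryos (log2 difference 3.21 ± 0.34 SE, adjusted p = 6.6e-06). Its values in vitrified whole embryos 1 and 2 were 6.43 and 13.1.

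S100A4, a calcium-binding protein linked to cell motility, was at 1.05 to 6.51 RPKM (median 3.62) in fresh whole embryos and 0.0795 to 0.855 RPKM (median 0.528) in vitrified TE, with no overlap (log2 difference 2.97 ± 0.45 SE, adjusted p = 0.00011). S100A4 had 36 reads over the vitrified TE libraries, and M-SAA3.2, given below, had 31. Both passed the filter on reads only through the fresh whole embryos, so their tests are given as a description. GRP, which encodes gastrin-releasing peptide, was at 0.198 to 2.41 RPKM (median 0.39) and 0.0102 to 0.0785 RPKM (median 0.0497), and it stood at 0.0188 and 0.0177 RPKM in the vitrified whole embryos. GRP also stands in the list of endometrial markers, of which it was the only member higher in fresh whole embryos out of 6 tested. For CLDN7 and M-SAA3.2 the groups overlapped although the tests passed. CLDN7, a claudin of tight junctions, ranged over 2.53 to 19.99 RPKM (median 9.59) and 0.545 to 7.68 RPKM (median 0.93). M-SAA3.2, a serum amyloid A gene with close copies among which reads could be split, was highest in fresh whole embryo 4, which held 29.3 RPKM beside a median of 2.48 in the group. Without that library its log2 difference went from 3.31 ± 0.91 (SE) to 2.52 (adjusted p = 0.0094). In 2 further genes, 1 of the vitrified whole embryos was nearer to fresh whole embryos. TRIB1, a pseudokinase, was 4.83 times higher in fresh whole embryos, with 0.945 and 3.79 RPKM in vitrified whole embryos 1 and 2. TEX12, a protein of meiotic chromosomes, was 5.25 times higher, with 0.92 and 0.322 RPKM in them.

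**Figure D2:**
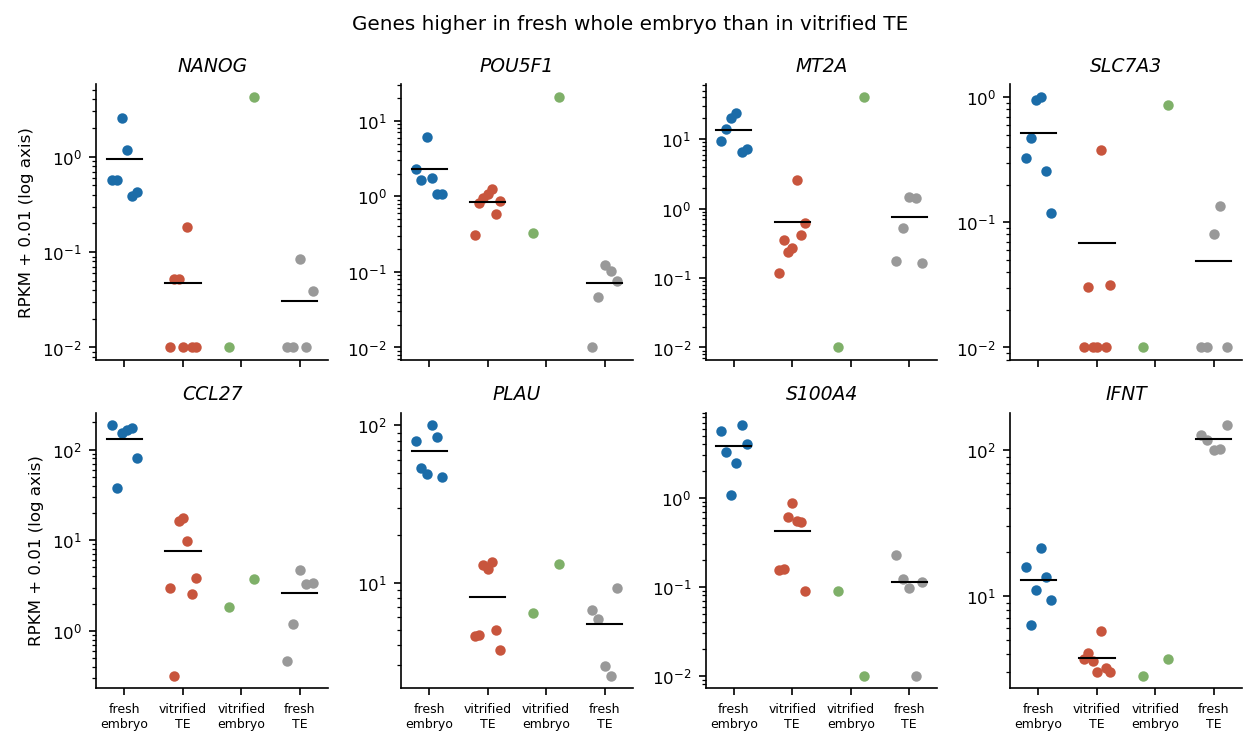
Level of 8 genes in every library, as RPKM + 0.01 on a log axis, with 1 point per library and a bar at the mean of the 6 fresh whole embryos, the 7 vitrified TE and the 5 fresh TE libraries; the 2 vitrified whole embryos have no bar. The upper row shows genes in which the 2 vitrified whole embryos lie far apart; in CCL27, PLAU, S100A4 and IFNT both lie in or below the range of vitrified TE.

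Interferon tau was lower in vitrified TE than in fresh whole embryos. The gene listed as IFNT (chromosome 8, 22607643 to 22634001) was at 6.35 to 21.3 RPKM (median 12.2) in fresh whole embryos and 2.99 to 5.74 RPKM (median 3.58) in vitrified TE, without overlap (log2 difference 1.68 ± 0.24 SE, adjusted p = 6.6e-05). The vitrified whole embryos had 2.82 and 3.68 RPKM, and fresh TE had 99.9 to 148 RPKM, far above every library of both groups compared. Interferon tau genes form a family of near-identical copies, so which copy the reads came from is uncertain. Of 9 interferon-stimulated genes tested, 2 were higher in fresh whole embryos (22.2%, against 17.8% of all genes). IFITM2, a membrane protein that blocks virus entry and has close relatives, was 7.68 times higher (log2 difference 2.56 ± 0.27 SE, adjusted p = 7.4e-06), and PLAC8, a placental gene regulated in early pregnancy, was 1.83 times higher. Of 10 tested genes for conceptus secretions, IFNT and PLAU were higher in fresh whole embryos (20%, against 17.8%) and PAG2 in vitrified TE (10%, against 31.7%). PAG2, a pregnancy-associated glycoprotein from a family of similar genes, was at 0.346 to 1.27 RPKM (median 1.02) and 0.833 to 3.35 RPKM (median 1.91), with an adjusted p of 0.044 that exceeded 0.05 in 13 of 27 alternative settings. PAG11 had means of 9.79 ± 3.64 RPKM (SD, n = 6) in fresh whole embryos and 9.11 ± 4.58 (SD, n = 7) in vitrified TE (adjusted p = 0.70).

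With the deposited scaling, genes for the cytosolic ribosome and for the nuclear-encoded part of the respiratory chain were higher in fresh whole embryos more often than the background. Of 75 ribosomal protein genes tested, 37 were higher in fresh whole embryos (49.3%) and 2 in vitrified TE (2.67%), and the median log2 difference was -0.34. RPL30 was at 189 to 245 RPKM (median 212) in fresh whole embryos and 52 to 84.7 RPKM (median 71.6) in vitrified TE (log2 difference 1.69 ± 0.14 SE, adjusted p = 1.2e-06). RPS27A, which encodes a ubiquitin fused to a ribosomal protein, was 2.13 times higher, RPL37A 2.34 times and RPL24 2.02 times. These counts depended on the scaling, with 46 and 1 after median-ratio scaling and 20 and 11 after quantile normalization. After quantile normalization 2435 of all 9329 genes were higher in fresh whole embryos, a share like that of the ribosomal protein genes. Their median log2 difference was then -0.04, against -0.03 over all genes. Ribosomal protein genes have many processed copies, between which reads may have been split. Both vitrified whole embryos had RPL30 levels above the vitrified TE range and below the fresh whole embryo range, at 88 and 95.3 RPKM.

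Of 52 nuclear genes of oxidative phosphorylation, 30 were higher in fresh whole embryos (57.7%) and 4 in vitrified TE (7.69%), with a median log2 difference of -0.60. UQCRB, a subunit of complex III, was at 86.5 to 159 RPKM (median 131) and 32.9 to 47 RPKM (median 41.3) (log2 difference 1.62 ± 0.14 SE, adjusted p = 1.8e-06). COX7A2 of complex IV was 2.7 times higher in fresh whole embryos, and UQCRH of complex III 2.14 times. In all of these the groups did not overlap. SDHA, the catalytic subunit of complex II, went the other way, with 1.67 to 2.39 RPKM (median 2.23) in fresh whole embryos and 4.27 to 4.57 RPKM (median 4.39) in vitrified TE.

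The mitochondrially encoded messenger RNAs moved opposite to those nuclear genes. Of 13 tested, 11 were higher in vitrified TE (84.6%), with a median log2 difference of 1.12. The subunits of complex I led. ND5 (mitochondrial genome, 12109 to 13929) was at 138 to 332 RPKM (median 161) in fresh whole embryos and 876 to 1463 RPKM (median 1376) in vitrified TE (log2 difference 2.68 ± 0.21 SE, adjusted p = 1.2e-06). MT-ND4L was 5.22 times higher in vitrified TE, MT-ND2 3.67 times and MT-ND4 2.63 times. ND4L and ND4 overlap by a few bases, and ND6 lies on the other strand beside ND5, so their reads may not be fully separable. The 2 members not past the threshold were MT-ND3 and MT-CO2, with log2 differences of -0.39 and 0.24, named after their values were seen. Vitrified whole embryos 1 and 2 had 699.7 and 536 RPKM of ND5, between the 2 groups, and fresh TE had 51.4 to 88.7 RPKM, below both. The share of mitochondrial messenger RNA in the listed reads, given above, moved with these genes.

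Most genes that mark trophectoderm were higher in vitrified TE. Of 28 tested genes of trophectoderm identity, 18 were higher there (64.3%, against 31.7% of all genes) and only KLF5 was higher in fresh whole embryos, with a median log2 difference of 0.85. DLX5, a homeobox factor (chromosome 4, 14291967 to 14296237), was at 0.0628 to 0.367 RPKM (median 0.193) in fresh whole embryos and 1.97 to 3.19 RPKM (median 2.28) in vitrified TE (log2 difference 3.11 ± 0.22 SE, adjusted p = 6.1e-07). Its relative DLX3 was 6.8 times higher in vitrified TE. GATA3, which drives trophectoderm fate (chromosome 13, 15984602 to 16002940), was at 0.416 to 1.02 RPKM (median 0.463) and 2.5 to 3.5 RPKM (median 3.01) (log2 difference 2.31 ± 0.17 SE, adjusted p = 7.9e-07). Every vitrified TE library stood above every fresh whole embryo in these 3 genes, although fresh whole embryo 2 was high in its own group for GATA3 and DLX3. Fresh TE held 1.54 to 3.6 RPKM of DLX5 and 1.01 to 1.62 RPKM of GATA3, which for DLX5 spans the range of vitrified TE.

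ASCL2, an imprinted factor of placental progenitors, was at 19.97 to 62.1 RPKM (median 36.1) in fresh whole embryos and 92 to 183 RPKM (median 132) in vitrified TE (log2 difference 1.99 ± 0.25 SE, adjusted p = 2.6e-05). TFAP2A was 4.03 times higher in vitrified TE, GATA2 2.75 times, and TEAD3, a partner of YAP in the Hippo pathway, 3.79 times. The keratins and a further factor of the layer differed less. KRT8 was 2.02 times higher in vitrified TE without overlap, while KRT18 had means of 1175 ± 279 RPKM (SD, n = 6) in fresh whole embryos and 1518 ± 279.7 (SD, n = 7) in vitrified TE (adjusted p = 0.057). TFAP2C had means of 6.67 ± 2.45 RPKM (SD, n = 6) in fresh whole embryos and 7.5 ± 0.915 (SD, n = 7) in vitrified TE (adjusted p = 0.35). KLF5, a Krüppel-like factor of trophectoderm, was 2.04 times higher in fresh whole embryos. Fresh TE was not on the side of vitrified TE for ASCL2, at 8.76 to 20.4 RPKM, nor for KRT8, at 141 to 183 RPKM, below every fresh whole embryo. For KRT18 it stood above every library of both groups, at 1925 to 2479 RPKM. Keratin genes have processed copies, and their reads may have been shared with them.

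Genes of the hypoblast were also mostly higher in vitrified TE. Of 34 hypoblast and yolk sac genes in the table, 25 were tested and 14 were higher in vitrified TE (56%), with APOM the only one higher in fresh whole embryos (median log2 difference 0.56). GATA6 (chromosome 24, 34549658 to 34579148) was at 0 to 0.0262 RPKM (median 0.0141) in fresh whole embryos and 0.0747 to 0.2001 RPKM (median 0.114) in vitrified TE. Its reads summed to 28 over the 6 fresh whole embryos and 232 over the 7 vitrified TE libraries, and the groups did not overlap (log2 difference 0.99 ± 0.13 SE, adjusted p = 2.8e-05). GATA6 passed the filter on reads only through the vitrified TE libraries, so its test is given as a description. FOXA2 was 3.51 times higher in vitrified TE and GATA4 2.4 times, both with overlap. SOX17 had means of 0.714 ± 0.53 RPKM (SD, n = 6) in fresh whole embryos and 1.41 ± 0.59 (SD, n = 7) in vitrified TE (adjusted p = 0.058). Fresh whole embryo 3 was the highest of its group in FOXA2, as it was in NANOG and POU5F1. APOE, a lipid carrier made by yolk sac endoderm, was at 11.1 to 60.9 RPKM (median 37.8) and 63 to 124 RPKM (median 80.6) (log2 difference 1.35 ± 0.31 SE, adjusted p = 0.0023). The 2 vitrified whole embryos had similar levels, with 0.0804 and 0.0984 RPKM of GATA6.

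Genes of the basement membrane went with them. COL4A2, a chain of collagen IV, was 5.33 times higher in vitrified TE, the laminin chain LAMC1 3.1 times and LAMA5 2.66 times, all without overlap. P4HA2, an enzyme that hydroxylates collagen, was 1.64 times higher. In the list of extracellular matrix and proteases as a whole, 16 of 35 tested genes were higher in vitrified TE (45.7%, against 31.7% of all genes). In fresh whole embryos 5 were higher (14.3%, against 17.8%), PLAU among them. The level of hypoblast markers, given above, moved with these genes, and its part in the differences was not tested.

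Markers of further embryonic tissues were few. Of 6 tested genes of mesoderm, gastrulation and amnion, 3 were higher in vitrified TE (50%, against 31.7% of all genes). TBX3, a T-box factor, was at 0.0288 to 0.362 RPKM (median 0.112) in fresh whole embryos and 1.28 to 2.04 RPKM (median 1.53) in vitrified TE (log2 difference 3.02 ± 0.27 SE, adjusted p = 1.8e-06). SNAI1, which represses E-cadherin in epithelial-mesenchymal transition, was 4.19 times higher in vitrified TE, and ISL1, known from amnion and heart, 1.62 times, the last with an adjusted p of 0.026 that was lost in 6 of the alternatives. NES, which encodes the intermediate filament nestin, was the only one of 3 neural genes past the threshold, 4.12 times higher in vitrified TE. Among endometrial markers LGALS9 was 1.57 times higher in vitrified TE, and among blood markers CD68, a lysosomal glycoprotein of macrophages, 2.51 times, where 6 other blood markers did not pass. Under median-ratio scaling 2 blood markers were higher in fresh whole embryos and 1 in vitrified TE.

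**Figure D3:**
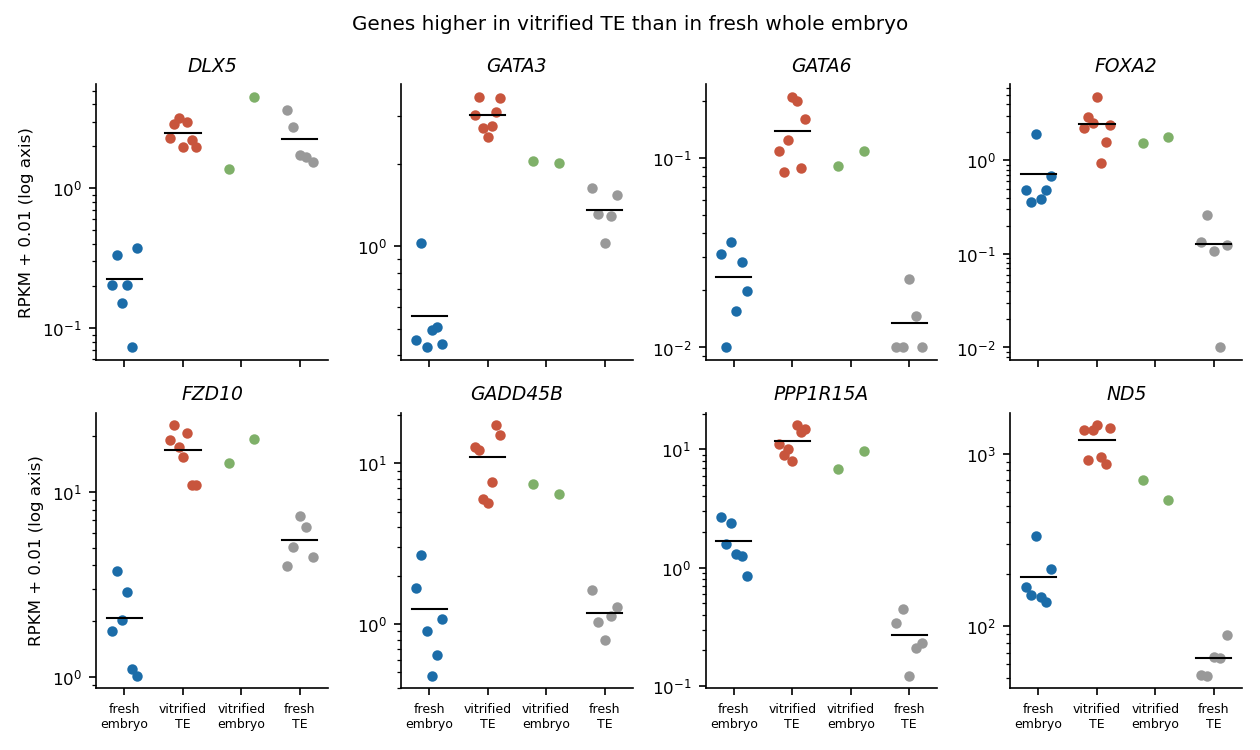
Level of 8 genes in every library, as RPKM + 0.01 on a log axis, with 1 point per library and a bar at the mean of the 6 fresh whole embryos, the 7 vitrified TE and the 5 fresh TE libraries; the 2 vitrified whole embryos have no bar. Vitrified TE lies above fresh whole embryos without overlap in 7 of the genes, FOXA2 being the exception, and the vitrified whole embryos lie above the fresh whole embryo mean in all 8.

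Immediate early genes, which cells transcribe within minutes of a stimulus, were largely higher in vitrified TE. Of 24 tested, 16 were higher there (66.7%) and 2 in fresh whole embryos (8.33%), with a median log2 difference of 1.13. GADD45B, a growth arrest and stress gene (chromosome 7, 22411968 to 22414079), was at 0.467 to 2.68 RPKM (median 0.981) in fresh whole embryos and 5.65 to 17.2 RPKM (median 12.1) in vitrified TE (log2 difference 3.13 ± 0.36 SE, adjusted p = 1.4e-05). IER2 was 4.17 times higher, the AP-1 subunit JUNB 3.41 times and the kinase SGK1 2.94 times, with no overlap in any of them. The 2 vitrified whole embryos had 7.41 and 6.4 RPKM of GADD45B, both in the range of vitrified TE. For JUNB they differed, with 9.01 in the first, inside the range of fresh whole embryos, and 35.1 in the second. DUSP6, a phosphatase that turns off ERK and a target of FGF signalling, was among the 2 that went the other way, at 4.08 to 12 RPKM (median 9.07) in fresh whole embryos and 1.69 to 3.05 RPKM (median 2.44) in vitrified TE (log2 difference 1.70 ± 0.22 SE, adjusted p = 3.0e-05).

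PPP1R15A, whose product GADD34 restores translation after stress, was at 0.836 to 2.67 RPKM (median 1.43) in fresh whole embryos and 8.003 to 15.9 RPKM (median 11.1) in vitrified TE (log2 difference 2.81 ± 0.25 SE, adjusted p = 1.8e-06). The list of integrated and endoplasmic reticulum stress genes as a whole had 4 of 17 higher in each group (23.5%). This was below the 31.7% of all genes higher in vitrified TE and above the 17.8% higher in fresh whole embryos. CRELD2, an endoplasmic reticulum protein, was 1.95 times higher in vitrified TE. TRIB3 was 3.77 times and ASNS, asparagine synthetase, 1.85 times higher in fresh whole embryos, both known targets of ATF4. Of 27 heat shock, chaperone and cold response genes, 11 were higher in vitrified TE (40.7%) and 4 in fresh whole embryos (14.8%). The chaperone CALR was 1.89 times, PDIA4 2.23 times and the heat shock factor HSF1 2.26 times higher in vitrified TE, whereas HSPE1, the small subunit of the mitochondrial chaperonin, was 1.75 times higher in fresh whole embryos. Apoptosis genes and p53 targets gave 5 of 21 higher in vitrified TE (23.8%, below the background) and 4 in fresh whole embryos, which became 2 and 8 after quantile normalization. BCL2L1, an inhibitor of apoptosis, was 1.8 times higher in vitrified TE, and CYCS, cytochrome c, BTG1 and BIRC2 were 1.68, 2.4 and 1.82 times higher in fresh whole embryos.

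Genes for making sterols and fatty acids were higher in vitrified TE in 22 of 31 tested cases (71.0%), with 2 higher in fresh whole embryos and a median log2 difference of 0.71. Of the 31 tested, 18 were higher in vitrified TE without overlap of the groups, a pattern that 16.5% of all genes tested had in this direction. HMGCS1, which makes the precursor of mevalonate, was at 0.292 to 0.906 RPKM (median 0.488) in fresh whole embryos and 1.08 to 1.59 RPKM (median 1.31) in vitrified TE (log2 difference 1.23 ± 0.18 SE, adjusted p = 7.1e-05). FDFT1, the squalene synthase, was 2.08 times and ELOVL1, a fatty acid elongase, 1.85 times higher in vitrified TE. SREBF2, the transcription factor that controls the sterol genes, was 5.57 times higher from 26 and 131 reads in all. Both vitrified whole embryos had FDFT1 levels above every vitrified TE library, at 2.32 and 2.57 RPKM.

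Lipid uptake and storage had shares close to those of all genes (31.7% and 17.8%), with 9 of 26 genes higher in vitrified TE (34.6%) and 4 in fresh whole embryos (15.4%), and 6 and 7 after median-ratio scaling. PLIN3, a coat protein of lipid droplets, was 2.19 times higher in vitrified TE, the triglyceride lipase PNPLA2 4.01 times and the acyltransferase AGPAT3 1.97 times. Among genes of prostaglandin and steroid synthesis 8 of 20 were higher in vitrified TE (40%, against 31.7% of all genes) and 5 in fresh whole embryos (25%, against 17.8%), or 5 and 6 after quantile normalization. PTGS2, the inducible cyclooxygenase that supplies the prostaglandins of the elongating conceptus, was at 34.9 to 57.9 RPKM (median 42.6) in fresh whole embryos and 18.9 to 38.1 RPKM (median 21.6) in vitrified TE, with overlap (log2 difference 0.81 ± 0.19 SE, adjusted p = 0.0027). PTGR2, a prostaglandin reductase, was 1.78 times higher in fresh whole embryos. PTGES2, a prostaglandin E synthase, and STARD3, which moves cholesterol out of endosomes, were 2.67 and 2.4 times higher in vitrified TE.

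Glycolysis and hypoxia genes were higher in vitrified TE in 16 of 33 cases (48.5%) and in fresh whole embryos in 3. PKM, pyruvate kinase, was 2.85 times and the phosphofructokinase PFKL 3.11 times higher in vitrified TE, as was VEGFA, 2.56 times. LDHA, which turns pyruvate into lactate, went the other way, at 25.1 to 40.5 RPKM (median 35.7) in fresh whole embryos and 8.29 to 17 RPKM (median 14.5) in vitrified TE (log2 difference 1.36 ± 0.18 SE, adjusted p = 3.2e-05). Nutrient transporters gave 11 of 27 higher in vitrified TE (40.7%) and 1 in fresh whole embryos (3.70%). SLC3A2, the heavy chain of amino acid exchangers, was 2.18 times, the glutamine transporter SLC1A5 1.95 times and the glucose transporter SLC2A1 1.63 times higher in vitrified TE. For SLC1A5 both vitrified whole embryos, at 1.74 and 1.71 RPKM, were near the fresh whole embryo median. Of 12 genes of water and ion transport, 2 were higher in each group (16.7%). Of all genes, 31.7% were higher in vitrified TE and 17.8% in fresh whole embryos. The bicarbonate exchanger SLC4A2 and the sodium-proton exchanger SLC9A2 were 1.99 and 2.38 times higher in vitrified TE, and CA2, carbonic anhydrase, and FXYD5, which modulates the sodium pump, were 2.66 and 1.66 times higher in fresh whole embryos.

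Of 34 junction and adhesion genes, 14 were higher in vitrified TE (41.2%, against 31.7% of all genes), some of desmosomes among them, and 4 in fresh whole embryos, or 12 and 9 after quantile normalization. DSP, the desmoplakin that ties desmosomes to keratin, was at 0.861 to 1.32 RPKM (median 1.02) in fresh whole embryos and 2.68 to 4.5 RPKM (median 3.7) in vitrified TE (log2 difference 1.68 ± 0.15 SE, adjusted p = 1.8e-06). EVPL, envoplakin, was 7.73 times, JUP, plakoglobin, 2.12 times and the tight junction scaffold TJP1 1.93 times higher. Of 42 cytoskeletal genes, 22 were higher in vitrified TE (52.4%) and 6 in fresh whole embryos. FLNA, filamin A, was 4.63 times, the nuclear lamin LMNA 3.48 times, the tubulin TUBB4B 2.28 times and ACTB, beta-actin, 1.58 times higher in vitrified TE, again without overlap. Actin and tubulin genes also have processed copies.

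Of 50 cell cycle genes, 21 were higher in vitrified TE (42%) and 5 in fresh whole embryos, although the median log2 difference was 0.06, and the counts became 17 and 12 after either median-ratio or quantile scaling. MKI67, the proliferation antigen, was at 0.156 to 0.365 RPKM (median 0.221) in fresh whole embryos and 0.893 to 1.34 RPKM (median 1.15) in vitrified TE (log2 difference 1.89 ± 0.15 SE, adjusted p = 1.2e-06). CCND1, cyclin D1, was 6.24 times, the replication helicase subunit MCM5 2.75 times and the mitotic activator CDC20 2.11 times higher in vitrified TE. Chromatin genes gave 20 of 35 higher in vitrified TE (57.1%) and 3 in fresh whole embryos (median 0.46). The histone acetyltransferase EP300 was at 0.0977 to 0.201 RPKM (median 0.126) and 0.609 to 0.775 RPKM (median 0.678) (log2 difference 1.72 ± 0.11 SE, adjusted p = 4.2e-07). The remodeller ARID1A was 3.78 times, the H3K9 methyltransferase EHMT1 2.84 times and the corepressor TRIM28 2.38 times higher.

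Imprinted genes, expressed from 1 parental copy and prominent in the placenta, were higher in vitrified TE in 8 of 16 cases (50%) and in fresh whole embryos in 1. That one was MEST, at 0.108 to 0.632 RPKM (median 0.446) in fresh whole embryos and 0 to 0.0353 RPKM (median 0.0197) in vitrified TE, from 332 and 15 reads over the groups (log2 difference 1.97 ± 0.25 SE, adjusted p = 2.8e-05). MEST passed the filter on reads only through the fresh whole embryos, so its test is given as a description. Both vitrified whole embryos were low in it, at 0.0653 and 0.0877 RPKM. The receptor IGF2R was 3.19 times and TSSC4 2.8 times higher in vitrified TE, beside ASCL2. In Wnt, TGF, BMP and FGF signalling 10 of 32 genes were higher in vitrified TE and 6 in fresh whole embryos, close to the background. FZD10, a Wnt receptor, had the largest difference of the members named here, at 1.003 to 3.73 RPKM (median 1.89) in fresh whole embryos and 10.9 to 22.9 RPKM (median 17.5) in vitrified TE (log2 difference 3.05 ± 0.29 SE, adjusted p = 2.8e-06). The ligands WNT6 and BMP7 were 2.94 and 2.1 times higher.

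Several of the largest differences in favour of vitrified TE lay outside these lists. ZNF296, a zinc-finger protein, had 0.024 to 0.208 RPKM (median 0.111) in fresh whole embryos and 1.75 to 3.8 RPKM (median 2.02) in vitrified TE (log2 difference 3.59 ± 0.25 SE, adjusted p = 5.0e-07). NEFH, a neurofilament chain, was 32.2 times, SCAF1, a splicing-related factor, 9.15 times, RASD1, a small GTPase induced by glucocorticoid, 8.01 times and FKBP8, a mitochondrial immunophilin, 6.06 times higher, all without overlap. PPP2R5B, a regulatory subunit of protein phosphatase 2A, was unlike them. It stood at 10.4 to 21.04 RPKM in vitrified TE 3, 4, 6 and 7, while the other 3 libraries of the group and every fresh whole embryo held no more than the 0.215 of vitrified TE 5. Its adjusted p of 0.024 rose above 0.05 without vitrified TE 3, 4 or 7, and its log2 difference of 3.58 ± 1.22 (SE) rose to 4.2 or 4.29 without vitrified TE 1 or 2.

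**Figure D4:**
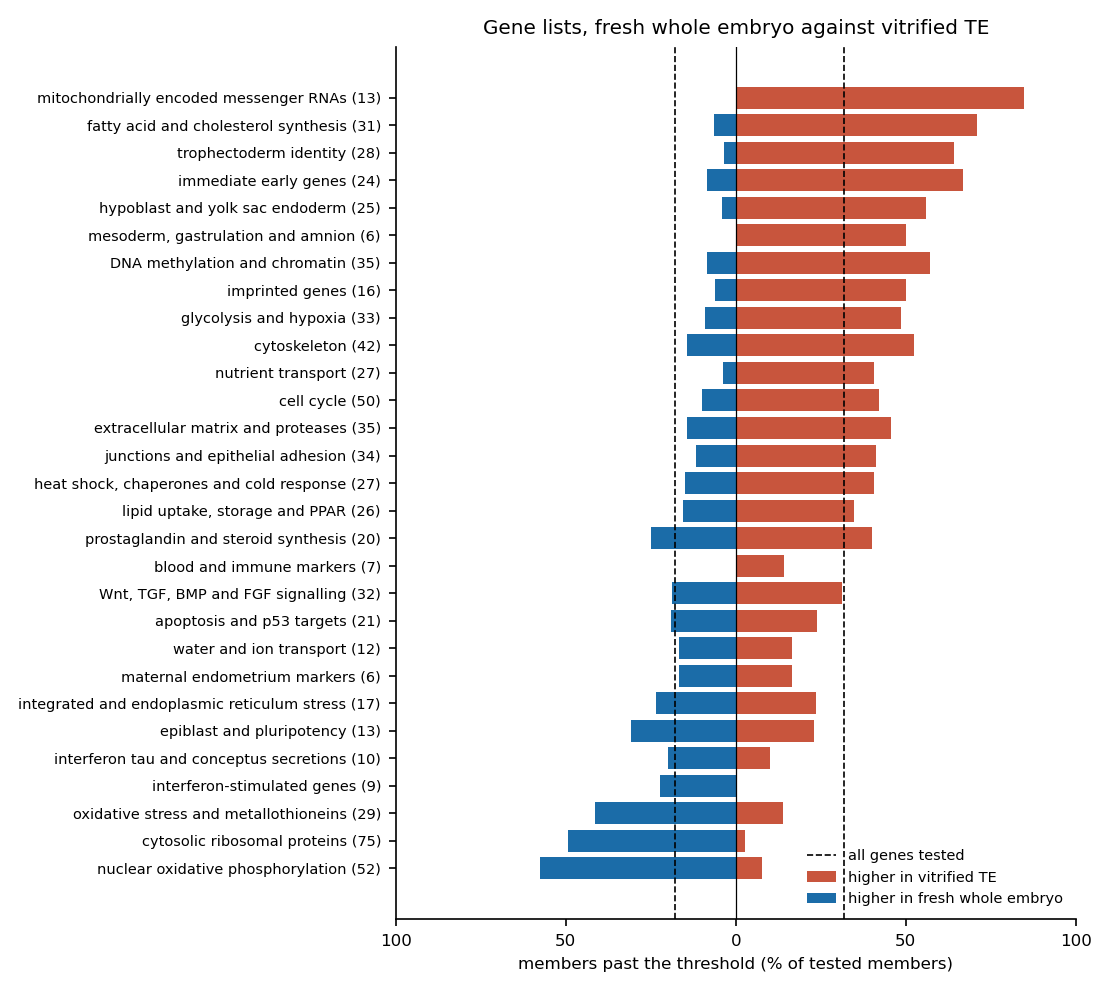
Share of the tested members of each gene list past an adjusted p of 0.05, in percent, to the right for genes higher in vitrified TE and to the left for genes higher in fresh whole embryos, with the number of tested members in brackets and lists of under 5 left out. Dashed lines give the share of all genes tested (31.7% and 17.8%); mitochondrially encoded messenger RNAs reach 84.6% on the right and nuclear oxidative phosphorylation 57.7% on the left.

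The reference libraries were set beside all genes that differed. For each gene, the log2 level of a vitrified whole embryo was placed on a line from the fresh whole embryo mean to the vitrified TE mean. These 2 libraries took no part in choosing the genes, but the libraries behind both means did, so the positions are a description. Of the 2953 genes higher in vitrified TE, 1661 (56.2%) had both vitrified whole embryos nearer to vitrified TE and 370 (12.5%) had both nearer to fresh whole embryos. Of the 1665 genes higher in fresh whole embryos, 746 (44.8%) had both nearer to fresh whole embryos and 424 (25.5%) both nearer to vitrified TE. Among the latter were CCL27, PLAU and IFNT. In 272 genes higher in fresh whole embryos only vitrified whole embryo 2 was nearer to them, as for NANOG and MT2A, and in 223 only vitrified whole embryo 1 was. Taken singly, vitrified whole embryo 1 was nearer to fresh whole embryos in 34.9% of the genes higher in vitrified TE and vitrified whole embryo 2 in 21.4%, and in the genes higher in fresh whole embryos these shares were 58.2% and 61.1%.

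Fresh TE gave another picture. All 5 fresh TE libraries were nearer to fresh whole embryos in 2457 (83.2%) of the genes higher in vitrified TE, and nearer to vitrified TE in 1165 (70.0%) of the genes higher in fresh whole embryos. In both directions they were thus mostly on the side with the lower level. Reads of listed genes made up 33.8 to 40.3% of the fresh TE libraries, against 57.5 to 61.0% in fresh whole embryos and 57.7 to 59.7% in vitrified TE, and the part of this in the positions was not tested.

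**Figure D5:**
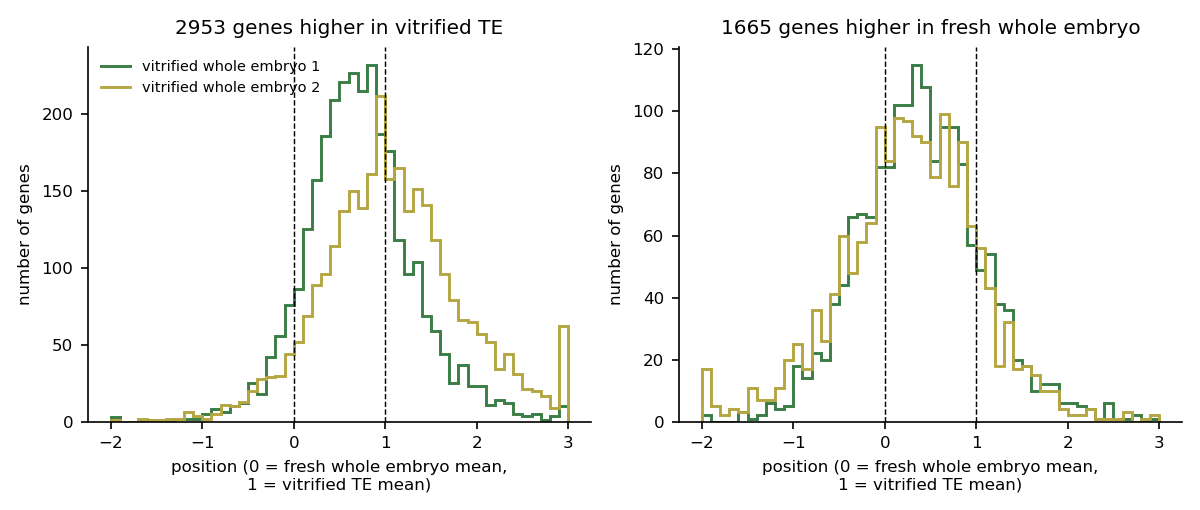
Number of genes by the position of each vitrified whole embryo on the log2 scale between the mean of fresh whole embryos (0) and the mean of vitrified TE (1), for the 2953 genes higher in vitrified TE and the 1665 higher in fresh whole embryos; values beyond the ends are in the end bins. For genes higher in vitrified TE the median position was 0.70 for vitrified whole embryo 1 and 1.02 for vitrified whole embryo 2, and for genes higher in fresh whole embryos 0.37 and 0.30.

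Genes higher in vitrified TE had a median span of 17.2 kb, genes higher in fresh whole embryos 14.2 kb and genes that did not pass the threshold 22.4 kb. Of the 2333 genes with the shortest spans 23.3% were higher in fresh whole embryos, and of the 2332 with the longest 11.9%. Within the groups, libraries varied to a like degree, with a median SD of log2 values of 0.26 in fresh whole embryos and 0.23 in vitrified TE. Spearman correlations across genes, which are not independent replicates, averaged 0.974 among fresh whole embryos, 0.978 among vitrified TE and 0.946 between the groups. In a chi-square comparison of recovered reads, every pair of libraries within the compared groups differed by more than counting noise (chi-square per degree of freedom 14.02 to 62.9 in fresh whole embryos and 6.88 to 34.1 in vitrified TE), so none of these looked like a library deposited a second time. Among the reference libraries, fresh TE 1 and 2 (1.88) and fresh TE 3 and 4 (1.48) came much closer to counting noise. The 5 fresh TE libraries may therefore not be 5 separate samples, which was not tested.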

How the data were processed

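RNA sequencing of day 14 bovine embryos was deposited as 1 table of 15542 genes in 20 samples. FastQC, STAR 2.5.3a and Partek, and the genome build UMD3.1, are named in the submitters' processing notes. How reads were counted and whether strand was used is not given in the sources used here. Values were deposited as RPKM plus a constant of 0.01, a unit inferred from the values: per kilobase of gene span, 94.5 to 95.8% of values under 1000 reads lay within 0.1 of a whole number of reads. Reads recovered this way served for depth and filtering only, and intervals or limits from them cover counting error only.

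After subtraction of 0.01, log2(RPKM + 0.1) of the 13 libraries was tested with limma 3.58.1 (R 4.3.3, trend and robust fitting with statmod 1.5.0). Genes needed at least 10 reads in at least 6 of the 13 libraries, which left 9329. Genes such as NANOG, the metallothioneins, S100A4, MEST and GATA6 passed this filter only through the group in which they were high. Their tests and lack of overlap are therefore not independent of the filter. Benjamini-Hochberg adjustment of p ran over all genes tested, with a threshold of 0.05. Fold values are ratios of mean RPKM, and log2 differences understate the change of low genes. The test was checked on simulated data with independent libraries and few changed genes. That check does not cover the choice of scaling or how the samples here relate. The plan foresaw this test for normalized values, and no count model was run. Library measures were compared by exact two-sided permutation tests.

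The comparison, the gene lists (30 lists, 1068 symbols, 940 of them in the table, 3 through a synonym) and the naming rule were chosen with earlier results of these data known. The rule took the 12 largest log2 differences in each direction among genes with a symbol and a mean of at least 50 reads in the higher group, up to 4 members of each list with the smallest adjusted p, and fixed markers of the cell layers. Any member of the lists of cell layers, secretions, endometrium and blood could be named as well. Symbols were matched through RefSeq's ARS-UCD2.0 gene table for names only. XIST, CDX2 and IFNT2 were not analysed here. No sequences were used. Alternatives covered pseudocounts, filters, scalings, reads per M, all 4 groups in 1 model, array weights, plain empirical Bayes, a replicate block and leaving out each library.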

Additional observations from a re-analysis of the deposited data

Results flagged for a closer look

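Among 274 groups of values (a named gene or a library measure in either group), 20 (7.3%) had a single highest or lowest library farther from its neighbour than Dixon's 95% limit allows, where chance gives about 1 in 20. Values are in RPKM, with the nearest other library of the group second.

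Vitrified TE 5 was the highest of its group in MT2A (2.55 against 0.603), NANOG (0.174 against 0.0427), MT1A (0.131 against 0), SLC7A3 (0.370 against 0.0214) and IFNT (5.74 against 4.04). Among the other vitrified TE libraries, TEX12 was highest in library 2 (1.05 against 0.441) and SALL4 in library 4 (2.93 against 2.19), and HSF1 was lowest in library 6 (0.722 against 0.860).

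Fresh whole embryo 3 was the highest of its group in NANOG (2.53 against 1.18), POU5F1 (6.01 against 2.29), FOXA2 (1.89 against 0.669) and IFITM2 (6.66 against 3.39). Fresh whole embryo 2 was the highest in GATA3 (1.02 against 0.497), DLX3 (0.715 against 0.417) and SLC2A1 (3.32 against 2.36). Fresh whole embryo 4 was the highest in M-SAA3.2 (29.3 against 5.49), IER2 (15.4 against 8.47) and BIRC2 (0.487 against 0.289). Fresh whole embryo 6 was the lowest in SDHA (1.67 against 2.14) and PFKL (1.11 against 1.498).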

How the results depend on the processing

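Most named genes were chosen for a large difference or a small adjusted p in these same libraries. The counts that follow therefore describe the chosen genes only. Of 131 named genes tested, 127 passed the threshold, and 119 of these passed it with the same direction in every alternative that tested them (95 genes in 27 alternatives, and 24 in 26, since the filter on a mean of 50 reads removed them). The other 8 (POU5F1, PPP2R5B, APOM, ISL1, LGALS9, PAG2, CA2 and FXYD5) kept their direction and lost the threshold in at least 1. Of the 4 that did not pass, KRT18 passed in 10 of 27 alternatives (adjusted p 0.0017 to 0.32 over them) and SOX17 in 8 of 26 (0.0092 to 0.11), in both cases also with the replicate block, and TFAP2C in none. PAG11 had log2 differences from -0.40 without fresh whole embryo 4 to 0.0503 without vitrified TE 4, a change of sign, and the cause was not tested. With each library left out in turn, genes higher in vitrified TE numbered 2735 to 3008 and genes higher in fresh whole embryos 1467 to 1820. No alternative moved either count by more than 1.5 times. The difference in the ribosomal protein share, vitrified TE minus fresh whole embryo, ranged from -2.54 to -1.82 percentage points with a library left out, and its adjusted p reached 0.051 without fresh whole embryo 4 (-1.82) or 5 (-1.98). The difference in the number of genes with at least 10 reads, 168, ranged from -35.4 without fresh whole embryo 4 to 315. The replicate block, over numbers 1 to 6 without vitrified TE 7, gave 2883 and 1587 genes. Same-numbered libraries did not pair: their correlations of deviations ran from -0.08 to 0.31, with 4 of 6 over 0.1 and 0 of 6 best with their own number. Low counts limit NANOG, MT1A, SOX2, GATA6 and SREBF2 most.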
